A study of Mus musculus with 2 samples.

Results

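The Kcnq1ot1 domain is an imprinted stretch of the distal end of mouse chromosome 7. It was taken here as mm9 chr7:150293001-150700000, an interval given with the names of 4 genes, Kcnq1, Kcnq1ot1, Cdkn1c and Phlda2. It spans 407 bins of 1 kb, of which 388 held a read in either library, as did 2299806 bins on chromosomes 1 to 19 and X. Its control region was taken as chr7:150480001-150483000 and read in 30 windows of 100 bp, and the body of Kcnq1ot1 was taken as about 150398000 to 150482400. The interval and its control region were chosen by the read counts and irregular lines of these libraries at this locus, so the levels below are descriptions and no test was made on them. The genes were placed by these given intervals and not by an mm9 annotation.

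The study immunoprecipitated DNA from feeder-free mouse embryonic stem (ES) cells cultured with the cytokine LIF, in 1 library per antibody. One library, labelled H2ABbd, came from crosslinked chromatin and a home-made rabbit antibody against mouse H2ABbd, a short histone H2A variant, and went through 20 cycles of PCR (ChIP-seq). The other, labelled 5mC, came from denatured genomic DNA and the mouse antibody clone 33D3 against 5-methylcytosine, and went through 15 cycles (MeDIP-seq). No strain, genotype or passage of the cells is given in the sources used here, no input library was used here, and nothing was replicated. Each deposited file is named for the antibody of the other sample. Libraries are therefore called by their sample labels, on which every direction below rests.

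Imprinted genes are expressed from the chromosome of 1 parent. In this domain the control region, also known as KvDMR1, lies within an intron of Kcnq1, carries DNA methylation on the maternal chromosome and holds the promoter from which the long noncoding RNA Kcnq1ot1 is transcribed, antisense to Kcnq1, on the paternal one. Kcnq1ot1 is known for silencing neighbouring genes in cis. Kcnq1 encodes a voltage-gated potassium channel subunit, Cdkn1c the cyclin-dependent kinase inhibitor p57Kip2, and Phlda2 a pleckstrin homology domain protein that limits placental growth. In the RefSeq gene table, which is on another build and was used for order alone, the genes run Trpm5, Kcnq1 with Kcnq1ot1 inside it, Cdkn1c, Slc22a18, Phlda2 and Nap1l4. Reads here were not assigned to a parental chromosome.

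The promoter of Kcnq1ot1 is shown because it is the transcript start that the control region holds. It runs from 250 bases before to 50 bases after the start, from RefSeq on GRCm38.p6, chr7:143296498-143296797, minus strand, and capitals mark CpG dinucleotides, the bases that DNA methylation modifies in most mammalian cells.
Kcnq1ot1: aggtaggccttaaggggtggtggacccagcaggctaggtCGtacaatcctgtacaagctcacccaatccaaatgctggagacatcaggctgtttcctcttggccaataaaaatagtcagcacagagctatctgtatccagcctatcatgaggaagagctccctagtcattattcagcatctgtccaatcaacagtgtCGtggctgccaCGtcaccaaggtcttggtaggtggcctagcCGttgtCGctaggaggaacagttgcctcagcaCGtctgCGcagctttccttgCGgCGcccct
The 300 bases hold 9 CpG dinucleotides, 1 in the first 150 bases and 8 in the last 150, and 45.8% of 32851 promoters of the same length in the table held at least as many (median 7). The letters CCAAT, which form the core of the box bound by the factor NF-Y, occur 3 times on the strand shown and not on the other strand (as ATTGG). Of all promoters 3.37% held at least 3 matches on either strand. The promoter of Phlda2 held 26 CpG dinucleotides, where 83.1% of promoters held fewer, and 1 CCAAT. Of the 4 members 2 were in the promoter table, and Kcnq1 and Cdkn1c were not.

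Over the whole genome, 1397289 distinct positions came from 3503839 aligned reads in the H2ABbd-labelled library and 8056333 from 9266471 in the 5mC-labelled library. Levels count each position and strand once and are given as a fold over the mean of chromosome 7, which was 0.640 reads per 1 kb bin in the H2ABbd-labelled library and 3.69 in the 5mC-labelled library. Ratios of the libraries are per distinct read of each library. Intervals are at 95%, exact Poisson for levels and exact Clopper-Pearson for shares and ratios. Without molecular identifiers, reads copied by PCR cannot be told from separate molecules, so the intervals cover counting error only.

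Some lines of the control region stand apart from the rest of the files, and they bear on its levels. The H2ABbd-labelled library has 8 lines with broken field separators, and the 5mC-labelled library has 1. All 9 lie in the control region, none shares a position with a regular line of its library, and all are left out of the values below unless stated. The 8 lines follow the last regular line of the file, and 6 of them have the same position and strand and the same y coordinate, 99999, in the read name. The 1 line of the other library has the same start as those 6, 150481301, but is on the plus strand, where they are on the minus strand. All 9 read names give the same tile of the flow cell, 2316. Counted once per position the 8 lines are 3, and counted as lines they bring the reads of the control region from 34 to 42 and from 36 to 37. In addition, 6 of the 34 regular reads of the control region in the H2ABbd-labelled library, and 11 of 36 in the 5mC-labelled library, had another read of the region within 0.02% of the lines of the file. These 6 and 11 reads covered 148 bp (150481242 to 150481389) and 151 bp (150481242 to 150481392). All of them lay in the 1 kb bin from 150481001 to 150482000, which held 31 and 27 regular reads by start coordinate. In other 1 kb bins with a number of reads like that of this bin, the median number of such reads was 0. Of 597 such bins in the H2ABbd-labelled library (26 to 36 reads) 1 held as many as 6, and the most in 2404 such bins of the 5mC-labelled library (22 to 32 reads) was 4. How these lines arose was not tested, and the levels of the control region are given below with the broken lines and without the neighbouring reads.

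The control region stood far above its surroundings in the H2ABbd-labelled library and less far in the 5mC-labelled library. It held 29 distinct reads of the H2ABbd-labelled library, 15.1 times the chromosome 7 mean (10.1 to 21.7), and 34 of the 5mC-labelled library, 3.07 times (2.13 to 4.29). Per distinct read the H2ABbd-labelled library was 4.92 times higher there (2.89 to 8.32), and if the file names rather than the sample labels hold, the ratio of H2ABbd to 5mC is the inverse, 0.203 (0.120 to 0.346). This ratio was 2.50 (1.52 to 4.11) with all reads kept and 9.67 (2.996 to 49.6) with the 5mC-labelled library thinned at random to the depth of the other. Thinning leaves the expected share of reads unchanged, and this 1 draw left few 5mC reads in the region, 2 of them from 150481001 to 150482000. In the 10 kb before the control region, inside the Kcnq1ot1 body, the levels were 0.313 (0.0379 to 1.13) with 2 reads and 0.840 (0.571 to 1.19) with 31 reads. In the 10 kb after it they were 1.88 (0.969 to 3.28) and 1.06 (0.752 to 1.45). Of 45406 other windows of 3 kb on chromosome 7, 44 had a higher H2ABbd level (0.0969%) and 147 a higher 5mC level (0.324%). The ratio was less unusual, as 1243 of the 45394 such windows with a read of the 5mC-labelled library had a higher one (2.74%).

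Of the 3 bins of the control region, the middle one carried most of the signal. The first bin, 150480001 to 150481000, held 0 reads of the H2ABbd-labelled library and 1 of the 5mC-labelled library. The upper limit of the H2ABbd level for that count of 0 is 5.77, so the first bin cannot be called poor in H2ABbd at this depth. The middle bin, 150481001 to 150482000, held 26 reads of the H2ABbd-labelled library (40.6-fold, 26.5 to 59.5) and 24 of the 5mC-labelled library (6.51-fold, 4.17 to 9.68). The third bin, 150482001 to 150483000, which holds the upper end of the Kcnq1ot1 body and so the surroundings of its start, held 3 and 9. The signal of both libraries thus lay on the Kcnq1ot1 side of the start, inside the transcribed body.

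With the lines with broken separators counted, the control region stood at 16.7 (11.4 to 23.5) and 3.16 (2.20 to 4.40), with a ratio of 5.27 (3.16 to 8.77), and its middle bin at 45.3 (30.4 to 65.1) and 6.78 (4.39 to 10.0). Without the reads that neighbour each other in the file it stood at 12.0 (7.60 to 18.0) and 2.17 (1.39 to 3.23), and the ratio was 5.53 (2.98 to 10.2). The middle bin alone then held 20 reads of the H2ABbd-labelled library (31.3-fold, 19.1 to 48.3) and 14 of the 5mC-labelled library (3.80-fold, 2.07 to 6.37). It kept its call as enriched in the first and lost it in the second. The lowest 5mC count called on chromosome 7 was 15, so the call was lost by a margin well within counting error. The 5mC call of the control region thus depends on keeping those reads. The windows of 3 kb with a higher level than the region were then 91 of 45406 in H2ABbd (0.200%) and 1123 in 5mC (2.47%). Those other windows kept all their reads, so the comparison is uneven.

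Within the control region the reads of both libraries were concentrated in nearly the same stretch of 200 bp, about 1 kb inside the body. In the H2ABbd-labelled library 18 of 29 distinct 5′ ends (62.1%) lay between 150481242 and 150481441. In the 5mC-labelled library 21 of 34 (61.8%) lay between 150481202 and 150481401. By 100 bp windows, 150481301 to 150481400 held the most, with 10 ends in the H2ABbd-labelled library and 15 in the 5mC-labelled library, and 150481201 to 150481300 held 7 and 6. The 12 windows from 150480001 to 150481200 held no 5′ end of the H2ABbd-labelled library and 1 of the 5mC-labelled library. The median 5′ end lay 1016 bp (H2ABbd) and 1042 bp (5mC) from the upper end of the body. With each read start moved 100 bp towards its 3′ end, as for the bins, the window with the most reads was 150481201 to 150481300 in both libraries, with 7 and 9 reads.

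**Figure D1:**
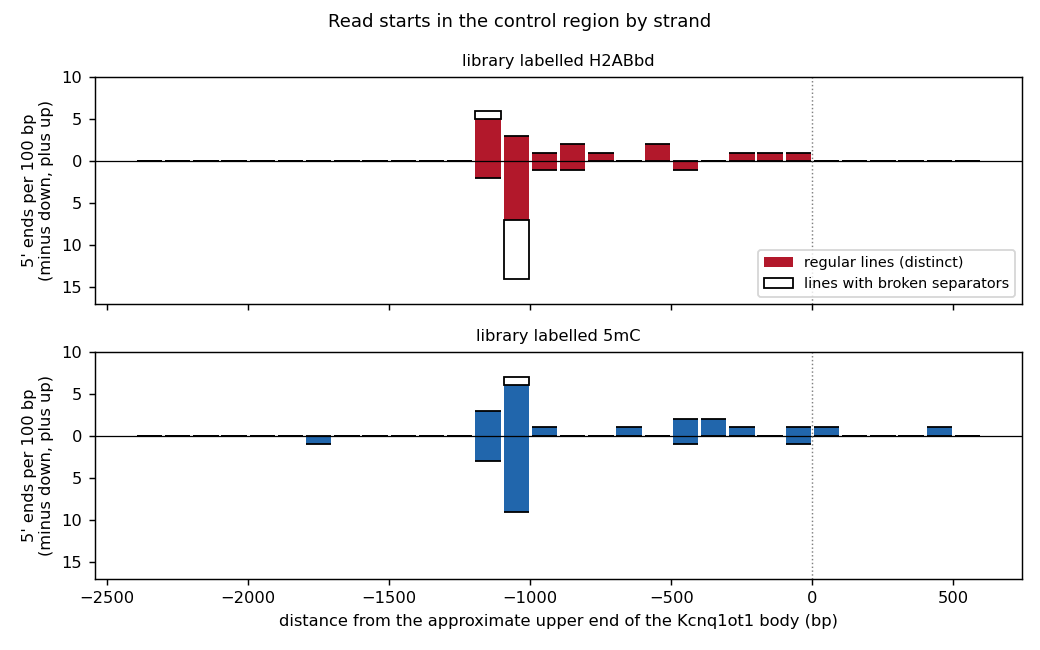
Distinct 5′ ends of regular lines in 100 bp windows of the control region, plus strand upwards and minus strand downwards, for the H2ABbd-labelled library (top, red) and the 5mC-labelled library (bottom, blue), by distance in bp from the approximate upper end of the Kcnq1ot1 body (dotted line). Open bars are lines with broken separators, of which 7 of 8 in the top panel are on the minus strand, and most ends of both libraries fall about 1 kb from the dotted line.

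With all regular reads counted, the concentration was stronger than in most enriched bins of like depth. The region was chosen by its read counts and irregular lines, so its rank among other bins is a description and tests nothing. The densest 200 bp held 18 of the 26 ends of the middle bin in the H2ABbd-labelled library (69.2%) and 21 of 26 in the 5mC-labelled library (80.8%). Other enriched bins with 15 to 40 distinct ends had a median of 50%, and 16.3% of 2541 (H2ABbd) and 5.28% of 8160 (5mC) were at least as concentrated. In the 5mC-labelled library the 11 reads that neighbour each other in the file all fell in this stretch, as did the 6 of the H2ABbd-labelled library in its own. Without them the shares were 12 of 20 (60.0%) and 11 of 16 (68.8%), and these were not ranked among other bins. The strands were mixed in the stretch, with 8 plus and 10 minus ends in the H2ABbd-labelled library and 9 and 12 in the 5mC-labelled library. The whole middle bin held 14 plus and 12 minus ends in the first and 13 and 13 in the second. In the middle bin the median minus end lay 11.5 bp before the median plus end in the first and 4 bp before it in the second. In other enriched bins of this depth with at least 5 ends on each strand, the median offset put the minus end 75.2 bp (H2ABbd) and 57.5 bp (5mC) after the plus end, and 26.3% of 1568 and 30.0% of 7422 had an offset as low or lower.

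Few positions were common to both libraries, and most of those lay in the control region. Of its 29 H2ABbd positions and 34 5mC positions 3 were the same base and strand, 10.3% and 8.82%. These 3, minus-strand 5′ ends at 150481283, 150481323 and 150481364, lay within the stretch covered by the reads that neighbour each other in the file. Whether they are such reads was not examined, and the share of common positions over the whole genome was not counted. Over the whole domain 4 of 359 and 1962 were shared, 1.11% and 0.204%. Of the 29 positions 4 carried more than 1 read in the H2ABbd-labelled library, with at most 3 reads at one position, and 2 of 34 did in the 5mC-labelled library.

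The body of Kcnq1ot1 outside the control region (150398001 to 150480000, 82 bins) was the poorest part of the domain in both libraries. It held 26 reads of the H2ABbd-labelled library, a level of 0.496 (0.324 to 0.726), and 217 of the 5mC-labelled library, 0.717 (0.625 to 0.819). Its most covered bin held 3 and 10 reads, and no bin of it was enriched in either. Of its 82 bins 15 held no read of either library, of 19 such bins in the domain. Over its 67 bins with a read the levels were 0.606 (0.396 to 0.889) and 0.878 (0.765 to 1.00). Whether these 15 bins can hold aligned reads at all was not tested. The ratio of the libraries in the body was 0.691 (0.441 to 1.04).

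The low 5mC level was that of the part of the body farther from the control region, the 3′ part of the transcript. From 150398001 to 150439000 the 5mC-labelled library stood at 0.377 (0.285 to 0.488) with 57 reads, and from 150439001 to 150480000 at 1.06 (0.900 to 1.24) with 160 reads. The H2ABbd-labelled library stood at 0.457 (0.236 to 0.799) and 0.534 (0.292 to 0.895), with 12 and 14 reads and overlapping intervals. Of the 15 bins without a read 14 lay in this far part, the longest run being 4 bins (150417001 to 150421000). Over the 27 bins of the far part with a read, the levels were 0.695 (0.359 to 1.21) in H2ABbd and 0.572 (0.433 to 0.741) in 5mC. Of 3442 other windows of its length, 41 kb, on chromosome 7, 28.5% had a lower H2ABbd level and 4.01% a lower 5mC level. The whole body was less unusual. Of 1722 other windows of 82 kb on chromosome 7, 28.7% had a lower H2ABbd level and 37.0% a lower 5mC level, and the medians were 0.724 and 0.863.

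**Figure D2:**
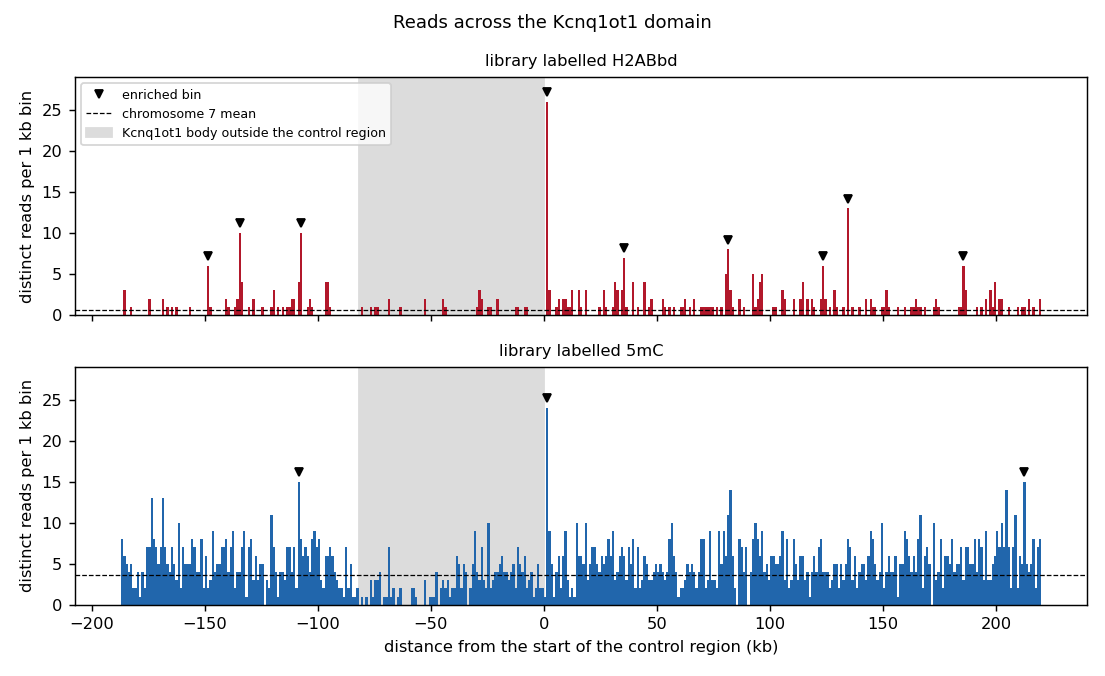
Distinct reads per 1 kb bin across the domain for the H2ABbd-labelled library (top) and the 5mC-labelled library (bottom), by distance in kb from the start of the control region. Grey marks the Kcnq1ot1 body outside the control region, dashed lines the chromosome 7 means of 0.640 and 3.69, and triangles enriched bins, and the tallest bar of both panels, at 26 and 24 reads, is the middle bin of the control region.

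The parts of the domain on either side of the Kcnq1ot1 body were moderately above the chromosome mean. Before the body (150293001 to 150398000), where Kcnq1 begins, the H2ABbd-labelled library stood at 1.22 (0.971 to 1.51) with 82 reads and the 5mC-labelled library at 1.43 (1.31 to 1.55) with 552 reads. After the control region (150483001 to 150700000) the levels were 1.61 (1.41 to 1.84) with 224 reads and 1.45 (1.36 to 1.53) with 1158 reads. By gene order this part holds the rest of Kcnq1 and then Cdkn1c, Slc22a18 and Phlda2. The mm9 positions of Cdkn1c and Phlda2 were not used here, so no level is given for either gene on its own. The ratio of the libraries was 0.856 (0.671 to 1.08) before the body and 1.12 (0.962 to 1.29) after the control region, and both intervals include 1.

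**Figure D3:**
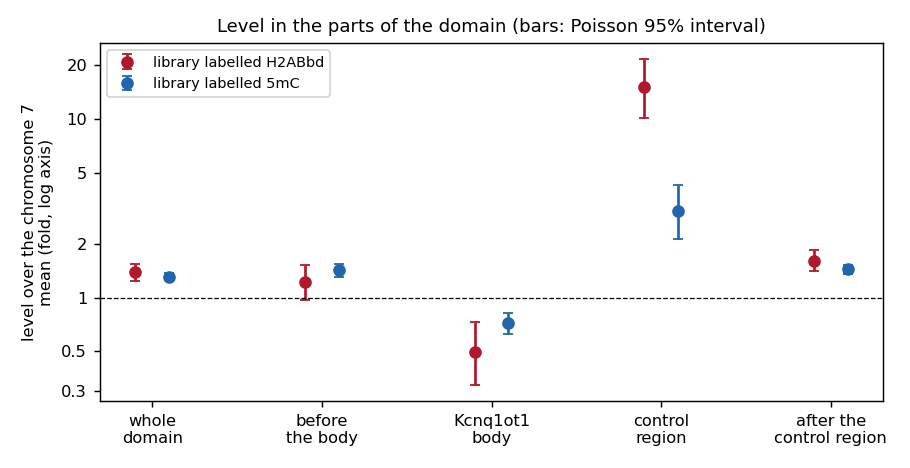
Level over the chromosome 7 mean (fold, log axis) in the whole domain and its 4 parts, red for the H2ABbd-labelled library and blue for the 5mC-labelled library, with exact Poisson 95% intervals. The control region lies at 15.1 and 3.07, the Kcnq1ot1 body outside it at 0.496 and 0.717, and the other parts between 1.22 and 1.61.

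As a whole the domain was not extreme for its chromosome. It held 361 distinct reads of the H2ABbd-labelled library, 1.39 times the chromosome 7 mean (1.25 to 1.54), and 1961 of the 5mC-labelled library, 1.31 times (1.25 to 1.37), and the ratio of the libraries was 1.06 (0.946 to 1.19). With all reads kept the ratio was 0.573 (0.516 to 0.635). With the 5mC-labelled library thinned, which raises the mean over non-empty bins, the levels were below that mean, at 0.860 (0.774 to 0.954) and 0.808 (0.724 to 0.899). The window of the same length just before it stood at 1.09 and 1.15, and the one just after it, towards the chromosome end, at 1.48 and 1.42. Of 348 other windows of this length on chromosome 7, 54 had a higher H2ABbd level and 57 a higher 5mC level. The control region is 3 of the 407 bins and held 8.03% of the H2ABbd reads and 1.73% of the 5mC reads of the domain. Without it the levels were 1.28 (1.15 to 1.43) and 1.29 (1.24 to 1.35) and the ratio 0.993 (0.881 to 1.12). Repeated reads at one position and strand made up 19.1% of all reads of the domain in the H2ABbd-labelled library (15.5 to 23.0%) and 4.81% in the 5mC-labelled library (3.92 to 5.82%), against 60.1% and 13.1% of all reads of each library.

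Enriched bins were few in the domain. Enrichment of a bin required 4 times the mean of its chromosome or more and a Poisson tail of 0.01 or less after Benjamini-Hochberg adjustment over all bins. This on chromosome 7 took 6 reads of the H2ABbd-labelled library and 15 of the 5mC-labelled library. Such a call sorts bins within 1 library and is no test of a condition. By this rule 9 of the 407 bins were enriched in the H2ABbd-labelled library, 2.21% (1.02 to 4.16%), against 1.18% of all bins. In the 5mC-labelled library 3 were, 0.737% (0.152 to 2.14%), against 0.508% of all bins. Among the bins of chromosome 7 with a read the shares were 1.39% and 0.477%. Both intervals include these shares and those over all bins. The 407 bins count 19 that were empty in both libraries, and neighbouring bins are not independent. The middle bin of the control region was the 1 bin of the domain enriched in both, against 0.122% of all bins.

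Outside the control region the libraries had 8 and 2 enriched bins and none in common. Over all bins 10.3% of those enriched in H2ABbd were also enriched in 5mC, so 8 bins are too few to read anything from a count of 0. The H2ABbd-labelled library had 3 such bins before the body and 5 after the control region, with 6 to 13 reads each (9.38-fold to 20.3-fold). The highest, 150614001 to 150615000, held 13 reads of the H2ABbd-labelled library (20.3-fold, 10.8 to 34.7) and 8 of the 5mC-labelled library (2.17-fold, 0.936 to 4.27). The bin from 150345001 held 10 reads (15.6-fold, 7.49 to 28.7) against 4 (1.08-fold, 0.295 to 2.78), and the bin from 150372001 held 10 against 8. The fifth in rank, from 150561001, held 8 reads (12.5-fold, 5.40 to 24.6) against 11 (2.98-fold, 1.49 to 5.34). Over these 8 bins the 5mC level had a median of 1.36 (0.542 to 2.98 from lowest to highest), the same as the median of all bins of the domain, 1.36.

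The 5mC-labelled library had 2 enriched bins outside the control region, both at the lowest count that could be called. The bin from 150371001 to 150372000, before the body, held 15 of its reads (4.07-fold, 2.28 to 6.71) and 4 of the H2ABbd-labelled library (6.25-fold, 1.70 to 16.0). It adjoins the H2ABbd-enriched bin from 150372001. The bin from 150692001 to 150693000, near the far end of the domain, held 15 (4.07-fold) and 1. The next bins, from 150562001 and 150684001, held 14 reads each (3.80-fold, 2.07 to 6.37) and fell short of the call, with 3 and 0 reads of the H2ABbd-labelled library. These 4 bins differ by 1 read, well within counting error.

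In windows of 10 kb the H2ABbd-labelled library varied more along the domain than the 5mC-labelled library. Of 40 adjoining windows (the last 7 kb left out) 23 lay above the chromosome mean in the H2ABbd-labelled library and 35 in the 5mC-labelled library. The lowest and highest levels were 0.156 and 4.53 in the first and 0.244 and 2.06 in the second, where a window at the mean holds fewer reads in the first. This contrast was not particular to the domain. Over 14055 other windows of chromosome 7 the levels ran from 0 to 20.8 in the first and from 0.0813 to 9.46 in the second. The median ratio was 0.940 across the 40 windows, against 0.734 over 14055 other windows of chromosome 7. The highest ratio, 3.15 (1.93 to 5.05), was that of the window with the control region (150473001 to 150483000), whose 29 H2ABbd reads all lay in the control region. The other 7 kb of that window held 0 reads of the H2ABbd-labelled library and 19 of the 5mC-labelled library.

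The next highest ratios were 2.26 (1.28 to 3.86) from 150343001 and 2.18 (1.09 to 4.13) from 150603001, followed by 2.04 (1.10 to 3.62) from 150613001 and 1.98 (1.15 to 3.31) from 150363001. The lowest were 0.266 (0.0535 to 0.813) from 150333001, with 3 reads against 65, and 0.303 (0.0806 to 0.809) from both 150303001 and 150683001, each with 4 against 76. Those from 150313001 (0.326, 0.0652 to 1.01) and 150633001 (0.333, 0.0664 to 1.03) had intervals that include 1. In all 5 of the 40 intervals lay above 1, 3 below it and 32 included it, with no adjustment for the 40 windows. In other 10 kb windows of chromosome 7 the ratio ran from 0 to 2.69 between the 5% and 95% points. Apart from the window with the control region, every window named here lies within that range. The windows with the lowest and the second highest ratio, from 150333001 and 150343001, adjoin each other before the body.

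**Figure D4:**
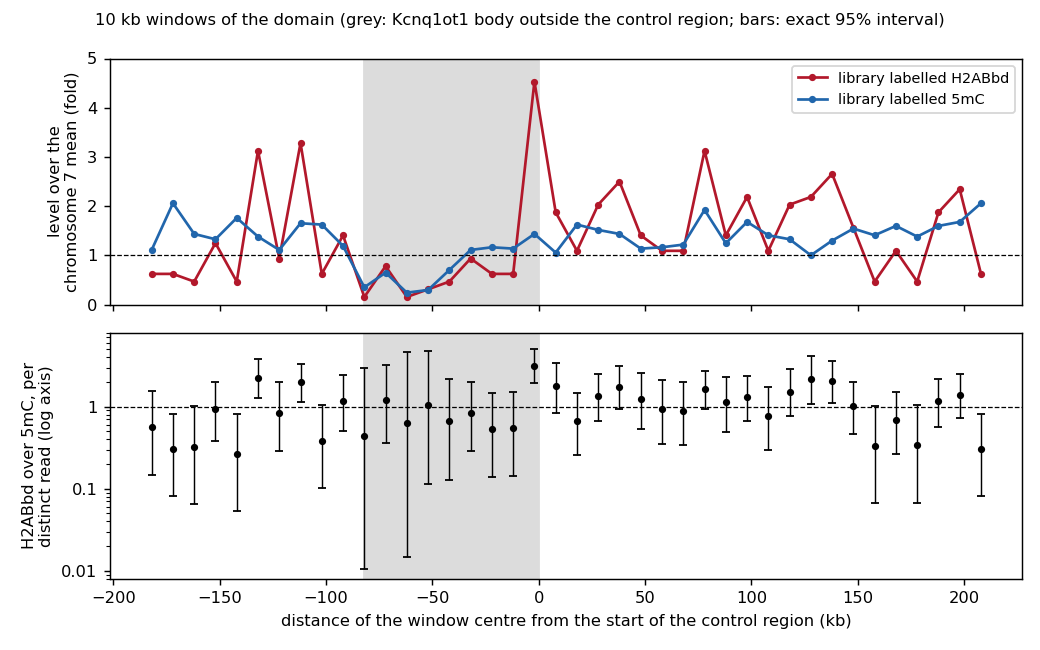
Level over the chromosome 7 mean (top, fold, red for the H2ABbd-labelled library and blue for the 5mC-labelled library) and ratio of the libraries per distinct read with exact 95% intervals (bottom, log axis) in 40 windows of 10 kb, by distance of the window centre in kb from the start of the control region. Both libraries dip in the far part of the Kcnq1ot1 body (grey), and the ratio is highest, at 3.15, in the window that holds the control region.

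Across the 388 bins of the domain that were not empty in both libraries, the levels were weakly correlated (Pearson r = 0.240, Spearman rho = 0.213, on log2(RPM + 0.1), where RPM scales the reads of a bin to the distinct reads of its library). Bins of one chromosome share their libraries, depth and base composition, so this is a description and carries no p-value. Without the control region r was 0.213, and after the 5mC-labelled library was thinned at random to the depth of the other it was -0.345. Bins empty in both libraries are left out, so a bin without a read of one library always holds a read of the other. With both libraries sparse this pulls r towards negative values by construction, so the thinned value does not show opposed levels.

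The middle bin of the control region was among the most covered bins of the genome in both libraries with all its regular reads counted, but had many equals. Of 2299806 bins 954 had a higher fold in the H2ABbd-labelled library and 2779 in the 5mC-labelled library, and 390 others were at least as high in both. Without the reads of the control region that neighbour each other in the file these numbers were 1649, 14728 and 580, where the other bins kept all their reads. After thinning the middle bin held 2 reads of the 5mC-labelled library (1.93-fold, 0.234 to 6.99). Of the 390 bins, 104 exceeded the fold threshold at least 10 times over in both libraries and are possible repeat pile-ups. Leaving such bins out, the nearest in log2 fold of both libraries was chromosome 4 from 19417001 to 19418000, with 28 and 24 reads (40.9-fold and 6.53-fold). It was followed by chromosome 2 from 5404001, with 25 and 22 reads, and chromosome 7 from 146643001, also on the distal part of the chromosome, with 25 and 25 reads. The likeness was taken over 2 libraries only, and 106 bins lay within 0.5 log2 units of the middle bin.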

How the data were processed

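Per the submitters' processing notes, the tools were FastQC and Bowtie and the build was mm9. Their versions, and how reads matching several places were handled, were not given in the sources used here. Each deposited file holds the start and end of each aligned read of 42 bp, with no deduplication and no peaks. The deposited score column has the same value on every regular line and was not used. MeDIP and ChIP fragments were 100 to 400 bp and 200 to 400 bp per the labels' protocols.

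Distinct positions (chromosome, 5′ end, strand) were counted once, moved 100 bp towards the 3′ end and counted in 1 kb bins. The mean of a chromosome covers the bins where either library has a read, so it moves with the depth of both. Lines with broken separators were kept apart. Windows of equal length were compared only where at least 50% of their bins held a read. The bin caller was run on simulated Poisson counts, the model it assumes, so that run does not bear on how well its calls hold in these data. Groups came from the sample labels. No comparison could be tested, with 1 library per group. The members, intervals and lists were chosen with earlier results of these data known. Named bins are those of the control region, the 5 with the most reads per library, those enriched in both, the 5 windows of 10 kb with the highest and lowest ratio, and the 5 bins nearest in fold to the densest. The alternatives were all reads kept, no shift, broken lines kept, thinning, other means, thresholds, bin sizes and pseudocounts. Leaving out reads close together in the file, the equal-length windows, the split of the Kcnq1ot1 body and the strand and position counts were added after the data were seen. Computation used Python 3.11.15, numpy 2.4.6, scipy 1.17.1 and matplotlib 3.10.9.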

Additional observations from a re-analysis of the deposited data

How the results depend on the processing

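Of 79 values under alternatives, 61 stayed within the main interval or within 1.5 times the main count, 17 moved beyond it and 1 reversed. Thinning the 5mC-labelled library to the distinct positions of the other, in 1 random draw, moved the most. By its construction fewer chromosome 7 bins hold a read (80282 in place of 129357), which raises the mean that levels are held against. The domain then stood at 0.860 (H2ABbd) and 0.808 (5mC), the Kcnq1ot1 body at 0.308 and 0.401 and the control region at 9.38 and 0.967 (0.199 to 2.83). The ratio in the control region, 9.67, does not use that mean and rests on the few 5mC reads this draw left there. The correlation turned to -0.345, which leaving out bins empty in both libraries pulls towards negative values once both are sparse. In that draw 0 bins of the domain were enriched in 5mC. With all reads kept the ratio was 0.573 in the domain and 2.50 in the control region. By construction these ratios are scaled by 2.64 reads of the 5mC-labelled library per read of the other, in place of 5.77 by distinct positions. Against the mean of chromosomes 1 to 19 and X the 5mC level of the domain was 1.38. In 5 kb bins the correlation was 0.409. The H2ABbd calls in the domain fell to 4 at an adjusted tail of 1e-05. The 3 5mC calls were 1 without the shift, 1 at 1e-05, 0 at 8-fold or more and 0 in 2 kb bins. The cause was not tested for the remaining changes. Depth limits the H2ABbd-labelled library most: 59.2% of the 407 bins held none of its reads, against 4.67% for the 5mC-labelled library. No paired analysis was possible because each group has 1 library.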
